A study of Mus musculus with 6 samples.

Results

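The genes described here are the machinery that lets a beta cell leave G1 and the brakes on it: the D cyclins Ccnd1, Ccnd2 and Ccnd3, their kinases Cdk4 and Cdk6, the inhibitors Cdkn1a, Cdkn1b and Cdkn2a, and the chromatin regulators Men1 and Ezh2. They are 10 of the 21631 protein-coding genes on chromosomes 1 to 19 and X. Every peak lying in one of these genes or within 50 kb on either side was taken, at RefSeq positions of GRCm38. The peaks come from CUT&RUN, in which an antibody bound to chromatin directs a nuclease that releases the DNA around it for sequencing. The cells were MIN6, a mouse insulin-secreting line labelled as beta cells, with 500000 cells per sample permeabilised in 0.01% digitonin. There were 3 groups of 2 replicates, with an antibody to endogenous MafA, with an H3K4me3 antibody (the positive control) or with IgG (the negative control), all from the same line with no drug or genetic treatment given in the labels. Peak lists of the 4 MafA and H3K4me3 libraries were used. No IgG file was used here, so IgG signal was not examined separately. Whether IgG served as the authors' background is not given in the sources used. The labels do not say whether replicates were separate cultures, so differences between them may be technical.

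D-type cyclins activate CDK4 and CDK6, which phosphorylate the retinoblastoma protein RB and so free E2F factors to start DNA synthesis. p21 (Cdkn1a) and p27 (Cdkn1b) bind cyclin-CDK complexes, whereas p16Ink4a, a product of Cdkn2a, binds CDK4 and CDK6 themselves. Arf, the other product of Cdkn2a, stabilises p53. Menin, encoded by Men1, is a tumour suppressor of endocrine cells that works with MLL methyltransferases, the enzymes that write H3K4me3, and keeps inhibitor genes such as Cdkn1b active in islets. EZH2 writes the opposing mark H3K27me3 and silences the Cdkn2a locus in young beta cells. MafA is a basic leucine zipper activator of mature beta cells, best known for binding the insulin promoter, and H3K4me3 marks the starts of active genes. MIN6 cells descend from an insulinoma of a mouse that expressed a viral large T antigen in its beta cells, a protein known to bind RB and p53, which limits the line as a model of normal cell cycle control.

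A region means a stretch covered by overlapping peaks of both replicates, sharing at least 1 bp. Fold enrichment is the ratio of signal at the summit to the background, with 1 added to each. It is the authors' own value for each peak, given for replicates 1 and 2 in that order. The MafA lists held 33013 and 42747 peaks with median fold enrichments of 5.03 and 4.82. The H3K4me3 lists held 16020 and 16904 peaks with medians of 14.8 and 13.4. All 6 genes checked for beta cell identity (Ins1, Ins2, Pdx1, Nkx6-1, Slc2a2 and Mafa itself) had a MafA region within 50 kb, beside 66.9% of all protein-coding genes, and all except Ins1 had H3K4me3 within 1 kb of a start. Lying near a gene does not show that a region acts on it. Windows also held other genes, from 1 beside Cdkn2a and Ezh2 to 9 beside Cdk4.

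Sequences before annotated starts are shown first, since the H3K4me3 and MafA results below differ between starts of a single gene. The 8 stretches are from RefSeq (GRCm38), 250 bases each, 5′ to 3′, ending just before the transcription start, with CpG dinucleotides in capitals. Cdkn2b, which encodes the CDK4 and CDK6 inhibitor p15Ink4b, is included because a MafA region inside the Cdkn2a window lies over its start. "Lower" and "upper" refer to chromosome coordinates.
Cdkn2a, lower-coordinate start (p16Ink4a), chr4:89282193-89282442, minus strand: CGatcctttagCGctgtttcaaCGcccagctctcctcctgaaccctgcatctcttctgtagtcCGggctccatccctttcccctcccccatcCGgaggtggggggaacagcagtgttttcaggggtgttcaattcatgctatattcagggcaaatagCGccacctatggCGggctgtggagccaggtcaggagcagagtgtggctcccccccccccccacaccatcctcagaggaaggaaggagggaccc
Cdkn2a, upper-coordinate start (Arf), chr4:89294620-89294869, minus strand: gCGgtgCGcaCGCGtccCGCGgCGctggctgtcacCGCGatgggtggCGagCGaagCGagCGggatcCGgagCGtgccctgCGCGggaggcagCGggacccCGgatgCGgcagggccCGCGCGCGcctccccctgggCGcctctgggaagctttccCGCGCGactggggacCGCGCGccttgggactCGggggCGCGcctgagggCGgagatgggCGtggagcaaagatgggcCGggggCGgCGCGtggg
Cdkn2b, chr4:89311033-89311282, minus strand: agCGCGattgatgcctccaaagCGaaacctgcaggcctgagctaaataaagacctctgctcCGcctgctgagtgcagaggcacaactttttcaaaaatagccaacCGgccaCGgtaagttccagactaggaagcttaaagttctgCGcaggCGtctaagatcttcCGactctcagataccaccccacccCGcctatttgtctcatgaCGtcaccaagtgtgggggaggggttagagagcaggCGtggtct
Cdkn1a, lower-coordinate start, chr17:29090729-29090978, plus strand: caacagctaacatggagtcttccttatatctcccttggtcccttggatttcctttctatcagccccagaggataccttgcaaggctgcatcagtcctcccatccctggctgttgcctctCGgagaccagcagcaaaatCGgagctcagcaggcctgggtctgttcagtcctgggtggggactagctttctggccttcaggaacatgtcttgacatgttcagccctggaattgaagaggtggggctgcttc
Cdkn1a, upper-coordinate start, chr17:29093519-29093768, plus strand: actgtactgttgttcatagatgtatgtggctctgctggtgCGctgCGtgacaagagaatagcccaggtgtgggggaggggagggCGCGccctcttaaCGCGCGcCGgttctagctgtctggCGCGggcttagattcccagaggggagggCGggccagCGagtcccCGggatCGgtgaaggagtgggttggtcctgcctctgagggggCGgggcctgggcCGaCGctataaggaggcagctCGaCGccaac
Ccnd3, lower-coordinate start, chr17:47504801-47505050, plus strand: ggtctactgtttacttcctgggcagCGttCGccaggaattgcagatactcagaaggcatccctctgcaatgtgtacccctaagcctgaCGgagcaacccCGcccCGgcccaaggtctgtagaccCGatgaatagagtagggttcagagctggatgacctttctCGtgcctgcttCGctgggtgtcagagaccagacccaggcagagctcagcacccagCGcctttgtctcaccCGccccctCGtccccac
Ccnd3, upper-coordinate start, chr17:47593217-47593466, plus strand: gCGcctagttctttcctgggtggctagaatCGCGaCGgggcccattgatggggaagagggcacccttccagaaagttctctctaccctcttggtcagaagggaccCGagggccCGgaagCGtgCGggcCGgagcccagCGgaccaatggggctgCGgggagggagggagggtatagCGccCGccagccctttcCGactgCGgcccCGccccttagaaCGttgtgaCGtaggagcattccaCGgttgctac
Cdk6, chr5:3343643-3343892, plus strand: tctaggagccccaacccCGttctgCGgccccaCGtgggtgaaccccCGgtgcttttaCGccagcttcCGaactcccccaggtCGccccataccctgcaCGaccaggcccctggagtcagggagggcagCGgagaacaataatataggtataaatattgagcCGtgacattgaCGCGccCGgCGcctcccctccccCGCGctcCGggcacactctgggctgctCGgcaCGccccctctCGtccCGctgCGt

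CpG density is a property of the promoters that H3K4me3 usually marks. Starts were annotated for 8 of the 10 genes, 13 windows of 250 bases in all. Ccnd1 and Ccnd2 are not among them. Of these 13 windows, 12 held more CpGs than the median of 6 over 32851 RefSeq promoters. The exception was the lower-coordinate start of Cdkn1a with 2. The p16Ink4a start of Cdkn2a had 7 CpGs against 40 at the Arf start, the most of any window here. The 3 overlapping windows of Men1 had 8, 10 and 9, although its start carried one of the strongest H3K4me3 regions of the group, so CpG number and H3K4me3 fold enrichment did not follow a single order.

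**Figure D1:**
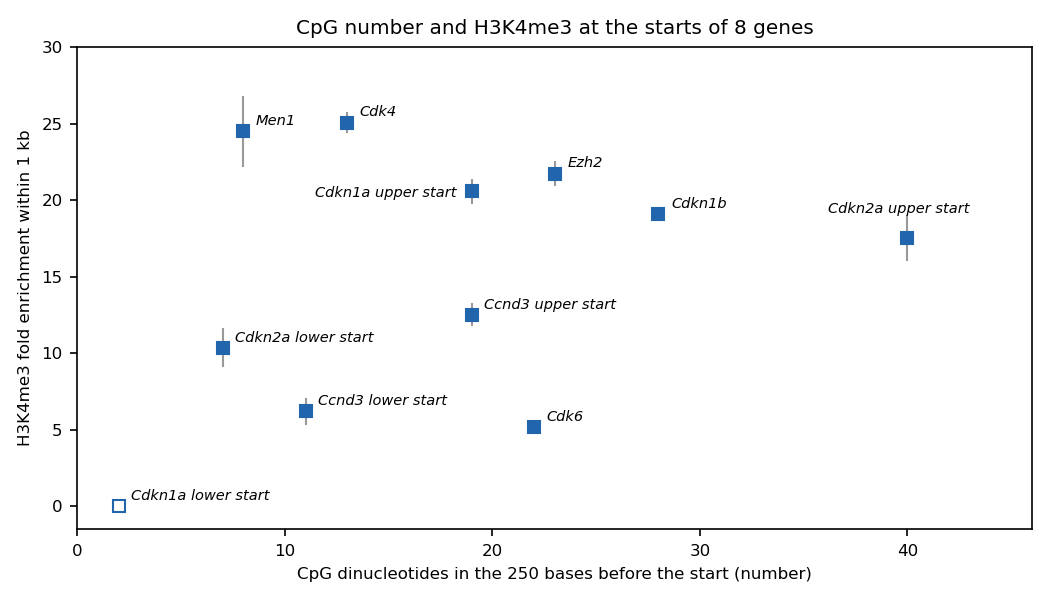
CpG number in the 250 bases before each start (x axis) against mean H3K4me3 fold enrichment of the region within 1 kb (y axis) for 8 genes, with grey lines joining the 2 replicates and 1 of the 3 Men1 starts drawn. The open square at 0 marks the lower-coordinate start of Cdkn1a, which had 2 CpGs and no H3K4me3 region within 1 kb; Cdk6, with 22 CpGs, had the lowest fold enrichment of the marked starts.

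Short motifs were searched on both strands of the same windows. The MAF half-site TGCTGAC was in 0 of 13, against 3.81% of all promoters. Its core TGCTGA, which TGCTGAC contains, was in 2 of 13, the lower-coordinate starts of Cdkn1a and Ccnd3, and also before Cdkn2b, against 16.1% of all promoters. The AP-1 site TGACTCA was in 0 of 13 (4.46% of all), the TATA box letters TATAAA in 1, Cdk6 (12.4%), and the GC box GGGCGG in 9 (32.7%). Those 9 include the 3 overlapping Men1 windows, which hold the same match, so they are not independent. A MafA region lay over 1 of the 13 windows, that of p16Ink4a, whose letters hold none of these 5 motifs. A match is only a match of letters, and the sequence under MafA summits away from starts was not analysed here.

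Across the windows of the 10 genes, MafA regions were frequent but mostly of modest fold enrichment and mostly away from the genes' own starts. The MafA lists held 31 and 46 peaks there and shared 27 regions, which is 87.1% of replicate 1 and 58.7% of replicate 2 peaks. Peaks of 1 replicate alone were 4 in replicate 1 (fold enrichment 3.55 to 4.69) and 19 in replicate 2 (1.66 to 5.29), while the shared peaks had medians of 4.99 and 4.82. H3K4me3 was more even, with 40 and 43 peaks, 39 shared regions and 1 peak alone in each replicate. Of the 27 MafA regions, 2 lay at a start of the genes described, 6 elsewhere inside them, 7 at the start of another gene, 8 inside another gene and 4 between genes. The nearest annotated start belonged to one of the 10 genes for 8 regions and to another gene for 19, and 17 lay more than 10 kb outside the gene. The windows reach well beyond each gene by construction, and the part of window size in these counts was not tested. Regions were not sorted by place in the windows of all genes. These counts therefore have no matched share and do not show distance to be a trait of the 10 genes.

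All 10 genes had a MafA region in the gene or within 50 kb, beside 66.9% of all protein-coding genes. Within 10 kb the number was 5 of 10, beside 44.6%, and inside the gene it was 4 of 10 (Ccnd2, Cdk6, Cdkn1a and Cdkn2a), beside 32.0%. Within 1 kb of a start it was 2 of 10 (Ccnd2 and Cdkn2a), beside 20.1%, so at close range the genes were near the background. H3K4me3 within 1 kb of a start was found at 9 of 10, all except Ccnd1, beside 57.7% of all genes. Among the 12474 genes marked in that way, 84.2% had a MafA region within 50 kb, compared with 9 of the 9 marked genes here. The windows held 1.89 MafA regions per 100 kb against 1.28 over the windows of all genes, and 2.72 H3K4me3 regions per 100 kb against 0.915. The part of gene-dense surroundings in the MafA counts was not tested.

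**Figure D2:**
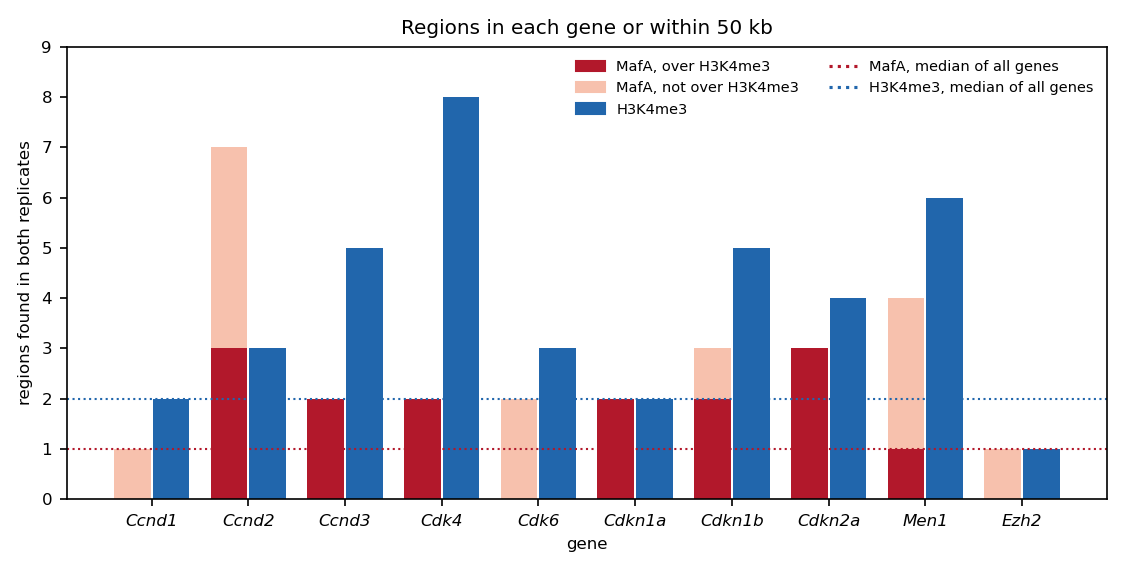
Number of regions found in both replicates (y axis) in each gene or within 50 kb (x axis), with MafA regions split by overlap with H3K4me3 and dotted lines at the medians over all protein-coding genes. Ccnd2 had 7 MafA regions and Cdk4 had 8 H3K4me3 regions, the highest of each; Ccnd1 and Ezh2 had 1 MafA region each.

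**Figure D3:**
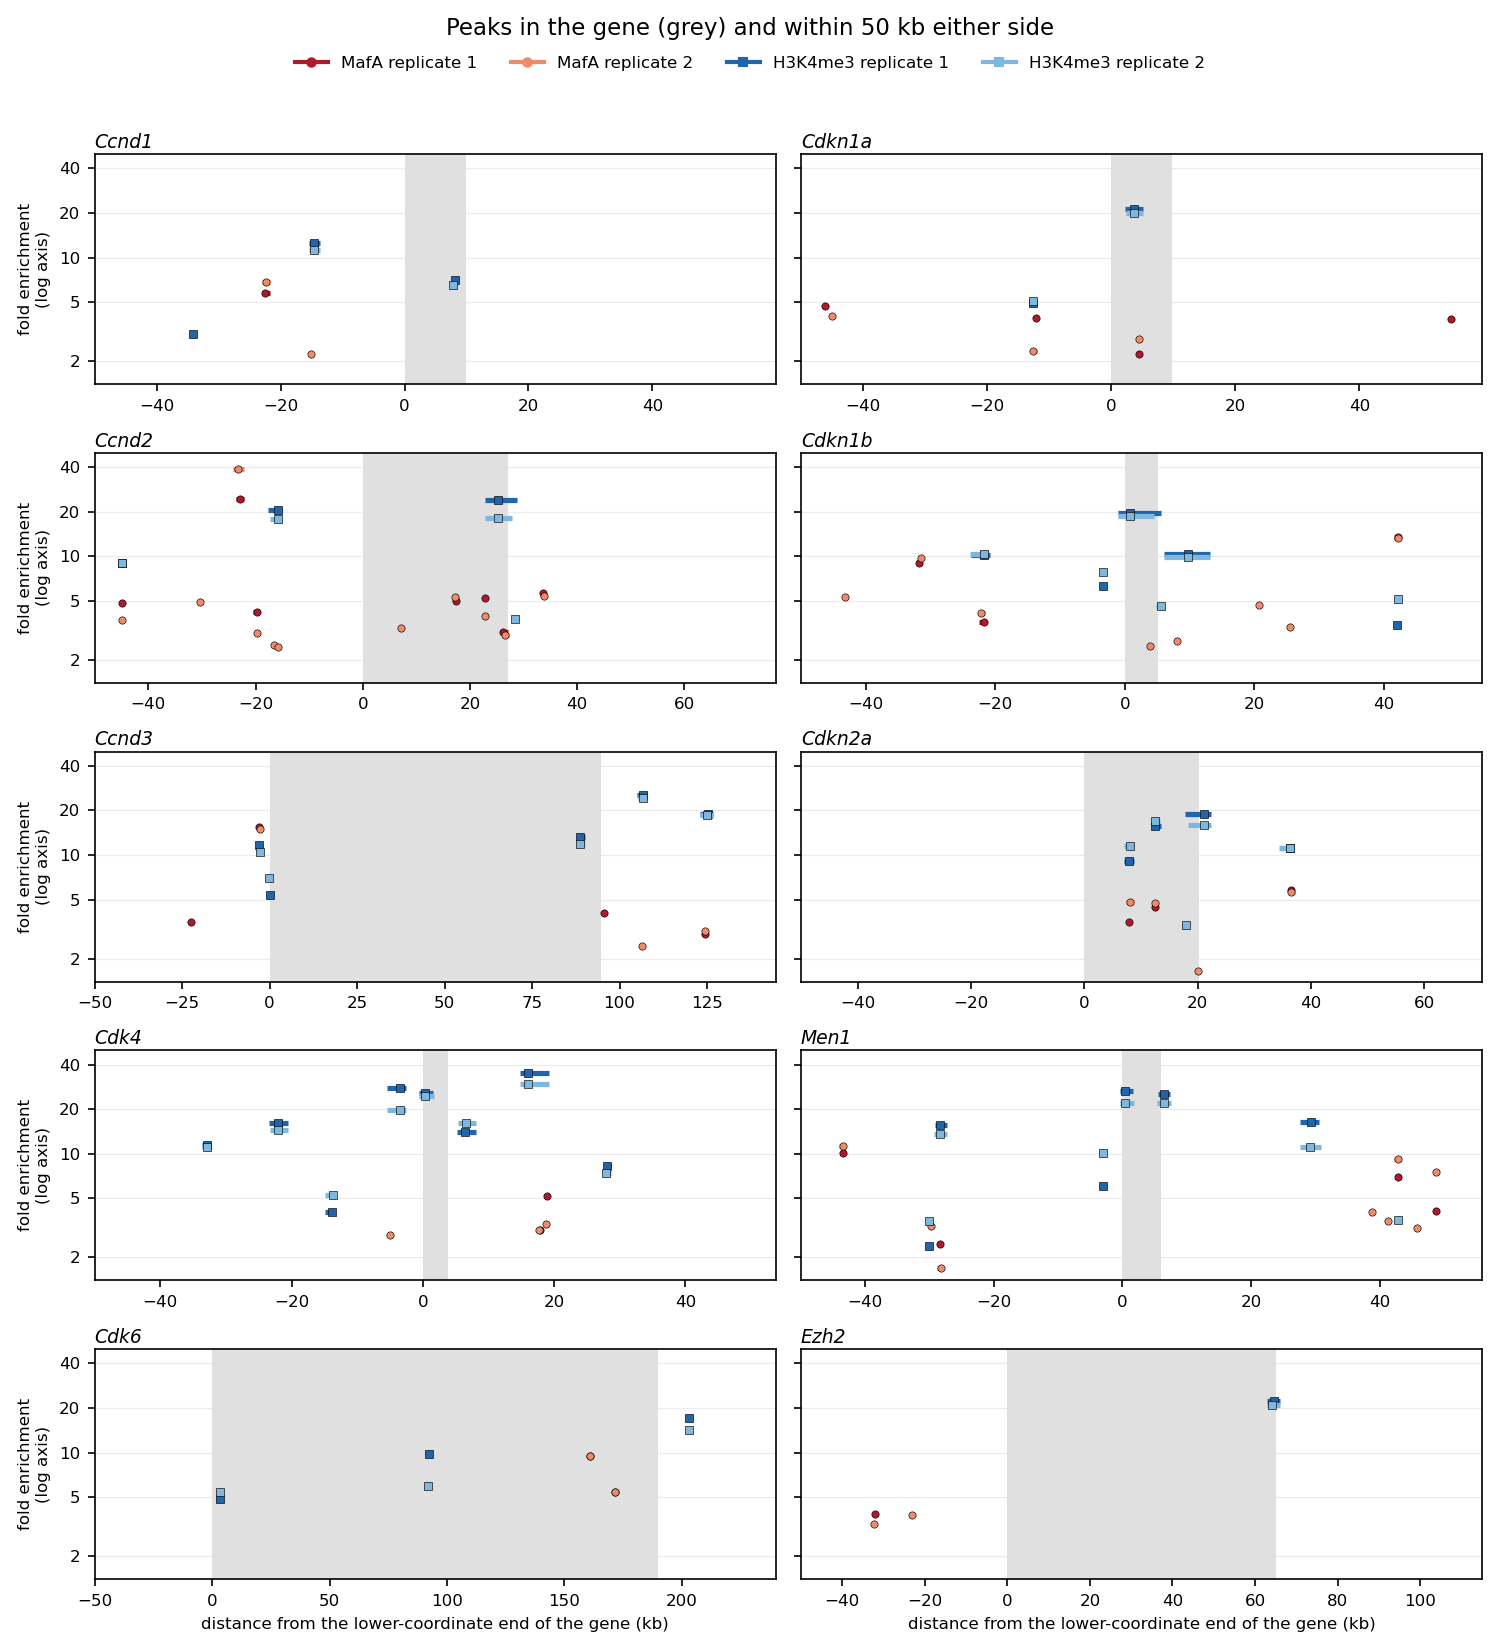
Every peak of the 4 lists in the 10 windows, by distance from the lower-coordinate end of the gene in kb (x axis) and fold enrichment (y axis, log scale). Grey marks the gene, points mark summits and bars mark peak widths; H3K4me3 is low at the starts of Cdk6 (4.88 and 5.43) and the lower start of Ccnd3 (5.35 and 7.03) and higher at the other marked starts, and the strongest MafA summits, beside Ccnd2, Ccnd3, Cdkn1b and Men1, lie outside the grey.

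Among the D cyclins, Ccnd2 stood out and Ccnd1 had the least. Ccnd2 encodes cyclin D2, the D cyclin on which postnatal growth of mouse beta cell mass depends. Its window (gene at chr6:127125162-127152188) held 7 MafA regions, at the 95.4th percentile of the number per gene. The strongest, at chr6:127100968-127102933, had fold enrichments of 24.4 and 38.6, a mean of 31.5 ± 10.0 (SD, n = 2). That is the 99.7th percentile of all 25894 MafA regions. It lay 22.2 kb below the gene, inside Tigar, 7.42 kb from the Tigar start and not over H3K4me3. Tigar encodes a fructose bisphosphatase induced by p53. Recovered depth was 126 and 239 fragments at its summits. The background there was 4.21 and 3.65 in the authors' scaled units, in which a fragment of replicate 1 counts 1 and a fragment of replicate 2 counts 0.746. Both replicates put its fold enrichment above that of every other MafA region of the 10 windows.

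Inside Ccnd2 the MafA signal was much lower. The upper-coordinate end of the gene, which carries its H3K4me3, had a MafA region at chr6:127151186-127152445 with fold enrichments of 3.07 and 2.96, the 4.43rd percentile. A region deeper in the gene, chr6:127142298-127142640, had 4.99 and 5.30 and did not overlap H3K4me3. Another, chr6:127147604-127148259, had 5.25 and 3.94 and overlapped the lower-coordinate edge of the H3K4me3 region, with both summits inside it. The other regions of the window had mean fold enrichments of 3.62 to 5.50, 1 of them 6.50 kb above the gene, 1 in Tigar and 1 over H3K4me3 inside Fgf23. H3K4me3 itself was 24.0 and 18.3 at the upper-coordinate end and ran over 6007 bp, wider than 99.4% of the 11635 H3K4me3 regions near starts, whose median was 2076 bp.

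Ccnd3 encodes cyclin D3. It had 2 MafA regions in its window (gene at chr17:47505051-47599689), neither inside it. The stronger, chr17:47501768-47502961, had fold enrichments of 15.4 and 15.0, a mean of 15.2 ± 0.341 (SD, n = 2), at the 94.7th percentile. It sat 0.145 kb from the start of Taf8, which encodes a subunit of the general transcription factor TFIID, and 2.09 kb below Ccnd3, so either gene is a neighbour. Its summits had 253 and 520 fragments, the deepest of the strongest regions of the 10 genes, and the MafA and H3K4me3 summits were 0.005 kb apart. The other, at the Usp49 start 29.6 kb above Ccnd3, had only 2.95 and 3.08. The 2 starts of Ccnd3 printed above differed in H3K4me3, with 5.35 and 7.03 over 920 bp at the lower one and 13.2 and 11.8 over 2034 bp at the upper one. The replicate values of the 2 starts did not overlap, and neither start had MafA within 1 kb.

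Ccnd1 encodes cyclin D1, a frequent oncogene in other tissues. Its window (gene at chr7:144929931-144939831) held 1 MafA region, chr7:144906955-144908237, with fold enrichments of 5.78 and 6.78, a mean of 6.28 ± 0.709 (SD, n = 2), at the 58.0th percentile. The region lay between genes, 21.7 kb below Ccnd1 and nearer to the start of Fgf15 at 6.47 kb. Ccnd1 was the only one of the 10 without H3K4me3 within 1 kb of a start. The table used gives no strand for Ccnd1 or Ccnd2, so both ends of each gene were searched. The nearest mark was a narrow region inside the gene, chr7:144937681-144938423, 743 bp wide, with fold enrichments of 7.10 and 6.55 and its edge 1.41 kb from the upper-coordinate end.

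The kinases had H3K4me3 at their starts and MafA at a distance or deep in the gene. CDK4 is the main D cyclin partner in mouse beta cells. Cdk4 (chr10:127063535-127067288) had H3K4me3 of 25.7 and 24.4 at its start, with 2601 and 1003 fragments, the 85.8th percentile of start regions, and its window held 8 H3K4me3 regions. Its 2 MafA regions both lay inside Agap2, near the upper-coordinate edge of the wide H3K4me3 region of its start. The stronger, chr10:127081979-127082682, had 5.16 and 3.35, a mean of 4.26 ± 1.28 (SD, n = 2), at the 21.8th percentile and 14.7 kb above Cdk4. The weaker had 3.05 and 3.05. The H3K4me3 region at Agap2, with 35.4 and 29.7, was the strongest in any of the 10 windows.

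Cdk6 (chr5:3341004-3531008) showed the reverse balance. Its H3K4me3 at the annotated start was only 4.88 and 5.43, with 127 and 48 fragments, the 4.19th percentile of start regions, although the 22 CpGs before that start were well above the promoter median. Both of its MafA regions lay inside the gene, far from that start and without H3K4me3. The stronger, chr5:3501267-3502245, had 9.42 and 9.53, a mean of 9.48 ± 0.0746 (SD, n = 2), at the 82.9th percentile. The other, chr5:3512378-3512773, had 5.43 and 5.39. These were among the closest replicate pairs of the group. The start nearest to both was that of Fam133b, beyond the upper-coordinate end of Cdk6.

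Among the inhibitors, p27 had a strong distal MafA region, p21 only weak ones, and Cdkn2a weak to moderate ones that all lay on H3K4me3. Cdkn1b (chr6:134920401-134925525) encodes p27. Its strongest region, chr6:134961911-134963025, had fold enrichments of 13.5 and 13.3, a mean of 13.4 ± 0.154 (SD, n = 2), at the 92.7th percentile. It lay between genes 36.4 kb above Cdkn1b, with the nearest start, that of Apold1, 19.5 kb away. A narrow and weak H3K4me3 region of 374 bp lay under it, with 3.46 and 5.11. The other 2 MafA regions were at separate annotated starts of Gpr19, below Cdkn1b. The region at chr6:134888401-134889113 had 9.01 and 9.75 and lay off H3K4me3. That at chr6:134897908-134898774 had 3.60 and 4.13 and overlapped H3K4me3. None lay within 10 kb of Cdkn1b. Replicate 2 alone had a peak inside the gene, with a fold enrichment of 2.49.

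Around Cdkn1b, H3K4me3 was unusually wide. The region over the start had 19.5 and 18.7 and spanned 6783 bp, wider than 99.7% of start regions and longer than the gene. A separate region of 7150 bp followed 0.889 kb above the gene, with 10.3 and 9.89. Together with Ccnd2 and the Arf start of Cdkn2a (4656 bp, 97.9th percentile of width), Cdkn1b had the widest H3K4me3 of the starts described here. These widths join both replicates. Replicate 2 split each into separate peaks, of 5612 and 845 bp at Cdkn1b, 5116 and 387 bp at Ccnd2, and 3976 and 318 bp at Arf. The fold enrichment of the same starts was middling, at the 59.7th, 69.6th and 51.3rd percentiles for Cdkn1b, Ccnd2 and Arf.

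Cdkn1a (chr17:29090979-29100722) encodes p21, the inhibitor induced by p53. Its H3K4me3 lay at the upper-coordinate start, with 21.3 and 19.8 over 2869 bp. The lower-coordinate start, whose 250 bases hold 2 CpGs, had no H3K4me3 region within 1 kb. A MafA region inside the gene, chr17:29095083-29096012, overlapped that H3K4me3 1.31 kb from the upper start and had 2.24 and 2.80, the 1.30th percentile. The strongest in the window, chr17:29078320-29079206, had 3.91 and 2.34, a mean of 3.13 ± 1.11 (SD, n = 2), at the 5.24th percentile. It lay between genes 11.8 kb below Cdkn1a, also over H3K4me3. Its summits had 12 and 30 fragments and lay 515 bp apart, the widest gap among the 27 regions. Among regions found in both replicates, Cdkn1a had the lowest mean for its strongest MafA region. In single libraries it did not: Ezh2 was lowest in replicate 1 (3.84 against 4.69 for Cdkn1a) and Cdk4 in replicate 2 (3.35 against 4.0).

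Cdkn2a (chr4:89274473-89294619, minus strand) yields p16Ink4a from the lower-coordinate start and Arf from the upper one. Both starts carried H3K4me3, at 9.13 and 11.6 for p16Ink4a and 18.97 and 16.1 for Arf, so the Arf start was higher in both replicates. MafA showed the other order. A region at chr4:89281872-89283174 covered the p16Ink4a start with fold enrichments of 3.56 and 4.82, its summit 0.0015 kb from that of H3K4me3. At the Arf start only replicate 2 had a peak, of 1.66, the lowest among the peaks found in replicate 2 alone. Between the starts, MafA at chr4:89286496-89287060 had 4.46 and 4.73 over an H3K4me3 region of 15.7 and 17.1. The strongest MafA region of the window, chr4:89310672-89311698, covered the Cdkn2b start with 5.85 and 5.64, a mean of 5.74 ± 0.148 (SD, n = 2), at the 49.97th percentile.

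Fold enrichment and depth did not rank these sites alike. The Cdkn2b start had 128 and 248 MafA fragments at its summits, about as many as the 126 and 239 of the Tigar region beside Ccnd2. Its background in the authors' scaled units was 21.1 and 32.0, against 4.21 and 3.65. Over the 27 regions, those on H3K4me3 had a median of 48 and 104 fragments and those off it 32.5 and 64.5, while the median background in scaled units was 13.0 and 19.8 against 4.1 and 5.0. Median fold enrichment was 4.19 on H3K4me3 and 6.04 off it. Both the fragments and the background of MafA regions were thus higher on H3K4me3 in each replicate, and the part of that background in the MafA signal was not tested.

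The chromatin regulators had strongly marked starts and no MafA region in the gene. Men1 (chr19:6334979-6340894) had H3K4me3 of 26.8 and 22.2 at its start, with 3094 and 1068 fragments, the 83.9th percentile of start regions. A region of similar height, 25.2 and 22.0, covered its other end, where the start of Map4k2 was nearest. Its 4 MafA regions were all more than 10 kb away. The strongest, chr19:6290939-6291903, inside Ehd1 and 43.1 kb below Men1, had 10.2 and 11.3, a mean of 10.8 ± 0.791 (SD, n = 2), at the 87.2nd percentile. Those inside Sf1 and at the Pygm start had 7.01 and 9.19, and 4.11 and 7.49. That at the Cdc42bpg start had 2.47 and 1.69, the lowest mean of the 27.

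Ezh2 (chr6:47530274-47595270) had the barest window. H3K4me3 was present once, at its upper-coordinate start, with 22.5 and 21.0 over 3114 bp. The single MafA region, chr6:47497866-47498411, lay inside Cul1, 31.9 kb below Ezh2. It had 3.84 and 3.28, a mean of 3.56 ± 0.397 (SD, n = 2), at the 10.2nd percentile, with 19 and 25 fragments.

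Set side by side, the strongest MafA region per gene fell in the order Ccnd2, Ccnd3, Cdkn1b, Men1, Cdk6, Ccnd1, Cdkn2a, Cdk4, Ezh2 and Cdkn1a. The replicate values of Ccnd1 and Cdkn2a overlapped, as did those of Cdk4, Ezh2 and Cdkn1a, so the order within these sets is not resolved. Ccnd2, Ccnd3 and Cdkn1b reached the 90th percentile of fold enrichment (11.9) in a region, 3 of 10 beside 13.8% of all genes. Each of these regions lay outside the gene. For every gene except Cdkn1a, the start nearest to its strongest region was that of another gene. Within 10 kb the order of means was Ccnd3 (15.2), Cdk6 (9.48), Ccnd2 (5.50), Cdkn2a (4.59) and Cdkn1a (2.52), and the other genes had no region. Of the 27 regions, 18 were below the median of all MafA regions and 9 at or above it. Their median fold enrichment was 4.59 against 5.75 for all MafA regions.

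**Figure D4:**
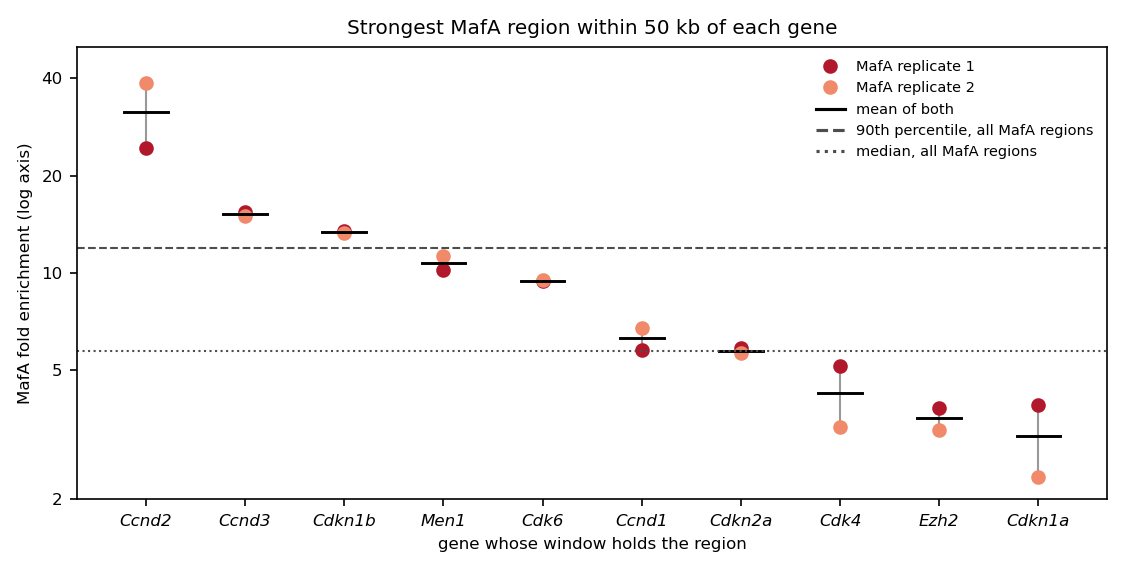
Fold enrichment (y axis, log scale) of the strongest MafA region in each gene or within 50 kb (x axis), with both replicates as points and their mean as a bar. Ccnd2, Ccnd3 and Cdkn1b lie above the 90th percentile of all MafA regions (dashed, 11.9), Cdkn2a lies on the median (dotted, 5.75), and Cdk4, Ezh2 and Cdkn1a lie below it.

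MafA regions of these windows often coincided with H3K4me3. Overlap was found for 15 of 27, or 55.6% (95% Wilson interval 37.3 to 72.4%), beside 23.5% of all MafA regions. Regions of a window are not independent, so the interval covers counting error only and is no test against that share. With lists cut to equal numbers of the strongest peaks it was 3 of 9 (33.3%), beside 13.1% of all, and without MafA replicate 1 it was 24 of 46 (52.2%), beside 23.4%. Per gene, 7 of 10 had such a region, beside 46.9% of all genes; Ccnd1, Cdk6 and Ezh2 did not. The windows were also denser in H3K4me3, as given above, and the part of that density in the overlap was not tested. Of the 15, 7 lay within 1 kb of a gene start, and for 9 the MafA and H3K4me3 summits were within 0.25 kb of each other. Of the 12 off H3K4me3, 2 lay within 1 kb of a start, at Gpr19 and Pygm. Replicate summits of the 27 regions were a median of 49 bp apart.

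MafA and H3K4me3 peaks differed in shape in the 10 windows. Median peak width was 553 and 530 bp for MafA and 1946 and 1890 bp for H3K4me3, with no overlap between the groups. The means were 541.5 ± 16.3 and 1918 ± 39.6 bp, a difference of -1376.5 bp (exact permutation test of the 4 libraries, two-sided, p = 0.333, the smallest p that 2 against 2 allows). Summits within 1 kb of a gene start made up 25.8 and 26.1% of MafA peaks and 67.5 and 58.1% of H3K4me3 peaks. The difference was -36.9 percentage points (exact permutation test, two-sided, p = 0.333, again the smallest possible). Both differences exceeded the spread between replicates, but with 2 libraries a group no smaller p can be reached.

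A further 32 genes of the G1/S pathway and its chromatin regulators give a setting for these values. Of them, 29 (90.6%) had a MafA region within 50 kb and 15 had one within 1 kb of a start, beside the 66.9% and 20.1% of all genes. All 32 had H3K4me3 within 1 kb of a start, and among all genes so marked the share with MafA within 50 kb was 84.2%. The share of marked genes with MafA within 1 kb of a start was not computed, so the 15 have no matched share. The 3 without a MafA region were Cdk2, the kinase partner of cyclins E and A, Cdkn2d, an INK4 inhibitor, and Bmi1, a Polycomb subunit. A region at or above the 90th percentile was near 6 of 32, beside 13.8% of all genes. The mitotic kinase gene Cdk1 had 14.9 and 21.0, and Ccnb1, which encodes its partner cyclin B1, had 14.7 and 15.5. Ezh1, the paralogue of Ezh2, had 16.6 and 17.0. E2f3, an E2F activator, had 14.1 and 11.8, the RB relative Rbl1 had 13.4 and 11.4, and Cdkn2b had 14.5 and 10.1, at a region outside the Cdkn2a window. The regions of Cdk1 and E2f3 overlapped the gene. Those of Ezh1, Ccnb1, Cdkn2b and Rbl1 lay 16.7, 33.8, 41.9 and 44.7 kb outside it. All 6 were below the strongest region of Ccnd2 in both replicates.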

How the data were processed

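CUT&RUN peaks were taken from 4 lists, 1 for each H3K4me3 and MafA library (2 replicates each, grouped by sample title), read as 150 bp pairs per the labels. The submitters' processing notes name MACS2 and GRCm38 (mm10). The MACS2 version, aligner, control library and duplicate handling are not given in the sources used here. The fold enrichment deposited by the authors is a linear ratio of summit signal to background, taken here as having 1 added to each. The deposited significance columns hold the −log10 p-value and the −log10 q-value, and the lowest −log10 q was 2.0, so weaker sites are missing from the lists.

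RefSeq tables of GRCm38.p6 gave the gene ends and, from promoter sequences, the starts. Where a gene had none, as for Ccnd1 and Ccnd2, either end counted as a start. A region was the union of peaks of both replicates overlapping by at least 1 bp, and its value in a replicate was that of the strongest peak. Percentiles rank the mean fold enrichment among all regions of the same antibody. Fragments at a summit (unscaled) and the background (in scaled units) were solved from fold enrichment and p under a scaling factor found per library (0.415 and 0.997 for H3K4me3, 1 and 0.746 for MafA), and all peaks in the 10 windows were solved. Intervals cover counting error only. Library medians and shares were compared by an exact permutation test, and the routines were tested on simulated data.

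The named genes were all 10 members, every MafA region at a start, inside a member or strongest in its window, and, of 32 further cell cycle genes, those with a MafA region at or above the 90th percentile and those with none. Members, lists and tests were chosen with earlier results of these data known. Other settings tried were a −log10 q minimum of 5, lists of equal length, 50% reciprocal overlap, other windows, other rankings, each library left out and a replicate block. The tools were pandas 2.3.3, numpy 2.4.6, statsmodels 0.14.6, scipy 1.17.1 and matplotlib 3.10.9 under Python 3.11.15.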

Additional observations from a re-analysis of the deposited data

How the results depend on the processing

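The number of MafA regions fell from 27 to 9 with equal numbers of strongest peaks per list, 10 within 10 kb and 8 in gene bodies alone. Those over H3K4me3 fell from 15 to 3, 6 and 5. As shares these were 55.6% in the main run, then 33.3%, 60% and 62.5%. The share of all MafA regions was 13.1% with equal numbers and 23.5% for the others. Genes with a MafA region fell from 10 to 5 within 10 kb and 4 in gene bodies, beside 66.9%, 44.6% and 32.0% of all genes. H3K4me3 regions fell from 39 to 21 and 15. These settings use fewer peaks or smaller windows by construction. Leaving out a library gave 31 to 46 MafA regions, 46 without MafA replicate 1, and 15 to 24 over H3K4me3, 24 without MafA replicate 1. Genes with a MafA region were 8 at a −log10 q of at least 5 (Cdkn1a and Ezh2 lost), 7 with equal numbers (Cdk4 also lost) and 9 with 50% overlap (Ezh2 lost). The share of all genes was not computed at these settings, so these counts have no matched share. Genes with H3K4me3 at a start were 9 in every alternative run. Over the alternatives, MafA minus H3K4me3 width was -1504.75 to -964 bp, and the difference in summits near starts was -41.6 to -28.4 points. With a replicate block the differences stayed at -1376.5 bp and -36.9 points (exact permutation p = 0.5, the smallest possible). Of 90 strongest-region values per gene and setting, 17 were lost. Of the 53 that kept both replicates, 47 moved by less than 1 SD; with a replicate left out, a value from the same region cannot move by more. Ranking by −log10 q or by fragments, the latter chosen after seeing the data, gave Men1 8.10. Ccnd2 gave 5.50 within 10 kb and 5.14 in the gene. Cdkn2a gave 4.59 in both, and Cdkn1a 4.69 without MafA replicate 2. Regions of 12 to 30 fragments, such as the Cdkn1a one, limit precision, and sites under the authors' q limit were not seen.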
